A study of Homo sapiens with 15 samples.

Results

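Semaphorins, the plexins that receive them and the neuropilins that act as co-receptors were followed in MDA-MB231 cells, a mesenchymal, triple-negative human breast cancer line, after interference with CtBP2. Members were all gene probes whose array name or current symbol began with SEMA3, SEMA4, SEMA5, SEMA6, SEMA7 or PLXN, or was NRP1 or NRP2. The rule used no measured value and found 57 of 41000 probes, under 33 of 30982 array names, for 31 genes: 20 semaphorins, 9 plexins and 2 neuropilins. SEMA4D was also listed under its older name C9orf164, and PLXNA4 stood under PLXNA4A and PLXNA4B, so these names are described apart. There were 15 two-colour arrays in 3 treatments of 5 biological replicates each. In the first, the cells stably expressed a short hairpin RNA against CtBP2 (shCtBP2) after puromycin selection, with no cloning step described. In the others, parental cells received a small molecule inhibitor of CtBP2 for 24 h, either HIPP (sodium 2-hydroxyimino-3-phenylpropanoate) or P4 (sodium 2-hydrazone-3-phenylpropanoate). By the labels, the treated RNA carried Cy5 and RNA of untreated MDA-MB231 cells carried Cy3 on every array. The dyes were never swapped, so a dye effect of a probe cannot be told apart from a treatment effect. For the hairpin cells, however, the study's text names cells with a scrambled hairpin as the comparison. Which of these controls the Cy3 channel of the shCtBP2 arrays held was not settled, and all shCtBP2 values are ratios over that channel. The labels give no dose, and the study used the compounds at different concentrations, so HIPP and P4 values stand side by side without a test.

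Semaphorins are secreted or membrane-bound proteins that share a sema domain and were first known for steering growing axons. Plexins are their receptors, whose cytoplasmic part acts on small GTPases and so on the cytoskeleton and on adhesion, while most secreted class 3 semaphorins first need a neuropilin, a co-receptor that also binds vascular endothelial growth factor. In tumours, members of the family have been tied to migration, invasion and vessel growth, some as promoting and some as restraining factors. CtBP2 is a co-repressor that is brought to DNA by other factors, among them ZEB-type and KLF-type zinc finger proteins.

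The windows around the start sites of 4 ligands are shown because these ligands carried the largest called changes among members found in the promoter table. They are RefSeq sequences of GRCh38.p14, each running from 250 bases before to 50 bases after a start, on the minus strand and written 5′ to 3′. SEMA3C lay at chr7:80919002-80919301, SEMA3D at chr7:85187007-85187306, SEMA7A at chr15:74433909-74434208 and SEMA3G at chr3:52445054-52445353. SEMA3C and SEMA7A each have 2 windows in the table, of which 1 is shown, and SEMA3A has no entry. Capitals mark CAGGTG or its reverse CACCTG, letters that ZEB-type factors can bind, and GGGTG or its reverse CACCC, a core of KLF-type sites.
SEMA3C: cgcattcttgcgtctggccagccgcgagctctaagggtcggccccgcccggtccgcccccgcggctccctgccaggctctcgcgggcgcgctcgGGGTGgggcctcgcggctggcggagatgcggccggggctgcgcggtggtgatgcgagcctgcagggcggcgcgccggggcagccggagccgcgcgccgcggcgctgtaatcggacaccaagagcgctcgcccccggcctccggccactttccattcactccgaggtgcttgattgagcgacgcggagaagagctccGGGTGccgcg
SEMA3D: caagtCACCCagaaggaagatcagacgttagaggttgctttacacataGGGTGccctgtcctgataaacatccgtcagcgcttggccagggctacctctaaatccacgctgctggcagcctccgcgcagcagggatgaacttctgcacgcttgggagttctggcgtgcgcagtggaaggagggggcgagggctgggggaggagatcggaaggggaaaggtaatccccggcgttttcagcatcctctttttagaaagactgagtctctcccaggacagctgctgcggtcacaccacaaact
SEMA7A: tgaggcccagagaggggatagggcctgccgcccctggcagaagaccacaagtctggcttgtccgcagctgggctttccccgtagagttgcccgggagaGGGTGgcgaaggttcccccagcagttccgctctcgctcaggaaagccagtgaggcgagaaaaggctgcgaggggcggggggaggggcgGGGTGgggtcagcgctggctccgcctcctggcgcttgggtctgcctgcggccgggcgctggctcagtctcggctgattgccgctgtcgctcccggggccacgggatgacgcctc
SEMA3G: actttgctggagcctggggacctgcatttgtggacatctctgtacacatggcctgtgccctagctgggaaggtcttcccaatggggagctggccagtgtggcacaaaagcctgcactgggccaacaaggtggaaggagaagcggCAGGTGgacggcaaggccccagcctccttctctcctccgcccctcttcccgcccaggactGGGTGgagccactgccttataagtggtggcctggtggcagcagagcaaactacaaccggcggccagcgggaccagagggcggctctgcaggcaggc
The SEMA3G window held CAGGTG letters at 1 place and GGGTG letters at 1 place, and each of the windows of SEMA3C, SEMA3D and SEMA7A shown held GGGTG letters at 2 places and no CAGGTG. Neither CAGGTG nor GGGTG was in the other SEMA3C window, at chr7:80922340-80922639, and the other SEMA7A window, at chr15:74433655-74433954, held GGGTG at 2 places and no CAGGTG. Over all 35116 windows of the table, 20.6% held CAGGTG and 59.9% held GGGTG on either strand, so matches of this kind are common. Of the 31 genes, 27 had windows in the table, 48 windows in all, and 8 of these held CAGGTG and 36 held GGGTG. A match describes the letters in a window and no binding was measured.

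The control channel carried the markers of the labelled line. All 7 mesenchymal markers (such as VIM, AXL and CAV1) were well above background on 15 of 15 arrays, whereas the luminal markers PGR and CDH1 were on none. Of 8 luminal markers, GATA3, FOXA1, EPCAM, KRT18 and KRT19 were above background on 15 arrays. Of the endothelial markers TEK was on none and PECAM1 on 15, and of the leukocyte markers PTPRC was on none and CD14 on 15. The other markers of these lists stood above background on 5 to 14 arrays. Of these 23 markers, 1 of 20 tested was called with shCtBP2, 4 of 19 with HIPP and 1 of 21 with P4. The mesenchymal CAV1 fell with HIPP, at -2.07 ± 0.29, and P4, at -1.38 ± 0.18, while CD44 and MMP14 rose with HIPP, at 1.40 ± 0.28 and 1.81 ± 0.43. Of the endothelial markers PECAM1 fell with HIPP, at -1.95 ± 0.26, and CDH5 rose with shCtBP2, at 1.18 ± 0.88. There the treated channel of CDH5 was well above background on 2 of 5 arrays and its control channel on 0 of 5, so its fold was not measured. The part of these changes in the values of the members was not tested. CTBP2 itself, the target of the hairpin, was -0.41 ± 0.11 (SD, n = 5) on the log2 scale with shCtBP2 and lower on 5 of 5 arrays, with limma adjusted p = 0.0603, so it did not pass. By real-time PCR the study reported a larger decrease of this mRNA against scrambled cells, and by western blot a decrease of the protein. The gap between the array and the PCR value was not tested. Per array and channel, 64.9% to 81.0% of 43376 gene spots stood well above background. The arrays lay on 4 slides, and shCtBP2 and P4 arrays never shared one.

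Each value below is the log2 ratio of treated over control signal, averaged over the probes of a gene, so 0 is no difference, 1 is a doubling and negative values are lower in treated cells. A gene was called when the limma p, adjusted over all genes tested, was under 0.05 and the mean ratio reached the fold the study set, 1.5 for shCtBP2, 2.5 for HIPP and 1.8 for P4. With shCtBP2, 8 of 30 tested members were called (26.7%), against 6.54% of all genes tested. SEMA7A, SEMA6A and SEMA3B rose, beside 3.34% of all genes, and SEMA3C, SEMA3A, SEMA3D, PLXNA2 and SEMA6B fell, beside 3.2% of all genes. With HIPP, 1 of 29 was called (3.45%), SEMA3A, which fell, against 7.04% of all genes called and 3.61% called lower. With P4, 3 of 32 were called (9.38%), SEMA3A, SEMA3G and SEMA3C, all lower, against 8.47% of all genes called and 4.17% called lower. In all, 9 array names were called in at least 1 treatment and 24 in none. The share of all genes called in at least 1 treatment was not computed, so this count has no comparison. In bulk RNA, fewer cells of a kind and less RNA per cell cannot be told apart.

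These counts moved with the fold that a gene had to reach. At any fold, the adjusted p was under 0.05 for 9 members with shCtBP2 (3 higher, 6 lower), for 15 with HIPP (5 higher, 10 lower) and for 9 with P4 (3 higher, 6 lower). The same held for 13.4%, 48.7% and 31.8% of all genes. At 1.5-fold in every treatment, 8 members passed with HIPP, against 32.5% of all genes, and 5 with P4, against 17.5%. Those with HIPP were SEMA3B, which was higher, and SEMA3A, SEMA3C, SEMA3G, SEMA4D, SEMA6B, PLXNA1 and PLXNA2, which were lower. Those with P4 were SEMA3A, SEMA3C, SEMA3E, SEMA3G and SEMA6B, all lower. Among these, the treated channel of SEMA4D with HIPP and of the falling SEMA3E probe with P4 was well above background on no array, so that neither fold was measured. The median log2 ratio over the members tested was -0.15 with shCtBP2, -0.29 with HIPP and -0.025 with P4, beside 0.038, 0.082 and 0.11 over all genes tested. Low variability left NRP2, PLXNB2 and SEMA4D untested with shCtBP2, NRP2, PLXNA4A, SEMA4F and SEMA6A with HIPP, and SEMA4C with P4. By at least 1 probe, 20 of the 33 names were well above background in both channels of all 15 arrays, while SEMA5A and SEMA5B were on none.

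**Figure D1:**
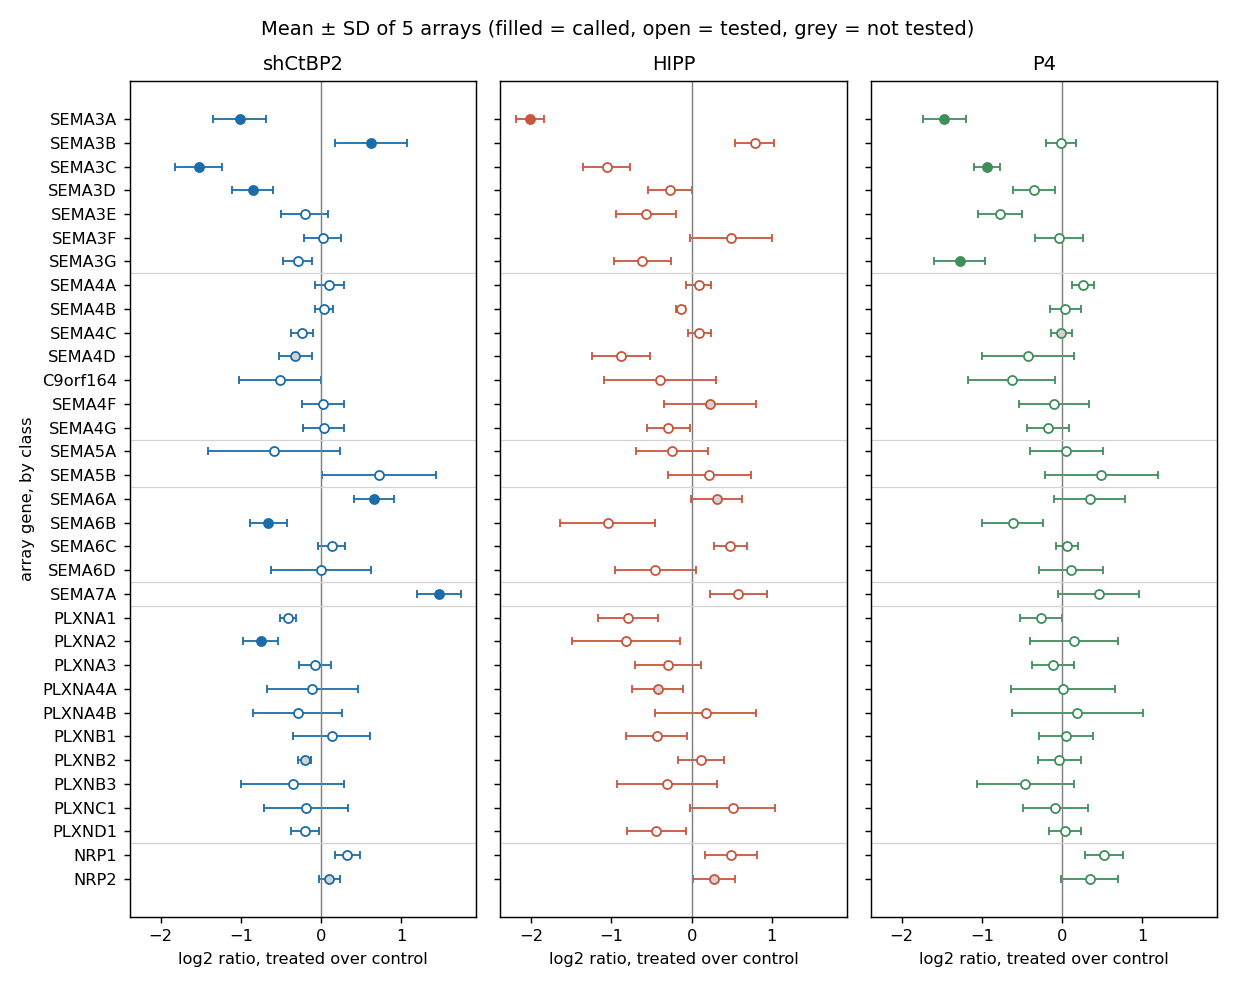
Mean log2 ratio of treated over control signal for each of the 33 array names of semaphorins, plexins and neuropilins in each treatment, with bars of 1 SD over 5 arrays. SEMA3A and SEMA3C lay below 0 in all 3 treatments (-1.02, -2.01 and -1.47; -1.53, -1.06 and -0.94), and SEMA7A had its highest mean, 1.47, with shCtBP2.

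Of the 7 secreted class 3 ligands, 1 rose and 3 fell with shCtBP2, 1 fell with HIPP and 3 fell with P4, where 6.54%, 7.04% and 8.47% of all genes were called. Their median log2 ratios were -0.29, -0.57 and -0.78, beside 0.038, 0.082 and 0.11 over all genes. The medians with HIPP and P4 are the values of SEMA3E, whose falling probe has no measured fold with either compound. SEMA3F, which has no measured fold either, is counted as well, so these medians do not measure a shift of the class. SEMA3A, which repels growing axons and signals through NRP1 and A plexins, fell in every treatment. Its arrays, in the order of replicates 1 to 5, read -1.40, -1.18, -0.83, -0.54 and -1.13 with shCtBP2. With HIPP they read -1.80, -2.26, -1.98, -1.91 and -2.12, and with P4 -1.12, -1.81, -1.32, -1.59 and -1.50. All 15 values lay below 0, and the lowest shCtBP2 array lay above the highest HIPP array. The means were -1.02 ± 0.34 (SD, n = 5) with shCtBP2, -2.01 ± 0.18 with HIPP and -1.47 ± 0.27 with P4, which are 2.02-fold, 4.04-fold and 2.77-fold decreases. The limma adjusted p values were 0.000111, 1.77e-08 and 1.71e-06. Normexp background correction with loess took the HIPP mean to -1.21, under the fold required, and no other alternative ended a SEMA3A call.

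SEMA3C, a ligand needed for the outflow tract of the heart, was read by a single probe. Its arrays gave -1.71, -1.59, -1.82, -1.06 and -1.46 with shCtBP2. They gave -0.78, -1.14, -1.21, -1.44 and -0.74 with HIPP and -1.19, -0.99, -0.76, -0.87 and -0.87 with P4. All arrays were again below 0, and the shCtBP2 range overlapped both of the others. The mean was -1.53 ± 0.30 (SD, n = 5) with shCtBP2, a 2.88-fold decrease with adjusted p = 1.86e-06. With P4 it was -0.94 ± 0.16, a 1.91-fold decrease with adjusted p = 7.01e-05, which reached 0.0588 with slide as a fixed block. With HIPP it was -1.06 ± 0.30, with adjusted p = 5.19e-06 and a 2.09-fold difference that stayed under the 2.5-fold set for that compound.

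SEMA3D, a further secreted ligand, fell with shCtBP2. The arrays there read -1.15, -1.09, -0.79, -0.61 and -0.63, giving -0.85 ± 0.26 (SD, n = 5) and adjusted p = 0.000432. The HIPP arrays read -0.17, -0.15, -0.22, -0.76 and -0.082, and the P4 arrays -0.27, -0.50, -0.37, -0.65 and 0.041. The means were -0.28 ± 0.28 with HIPP and -0.35 ± 0.26 with P4, neither called. These values average 1 probe that was well above background on all arrays and 2 dim probes. The bright probe gave -0.80 ± 0.25 with shCtBP2, -0.85 ± 0.41 with HIPP, where it was lower on 5 of 5 arrays, and -0.25 ± 0.20 with P4. The dim ones gave -0.44 and -1.32 with shCtBP2 and -0.49 and 0.51 with HIPP, so the smaller HIPP mean of the gene comes from the dim probes. The shCtBP2 call was lost with the methods' t-test (adjusted p = 0.102) and with normexp and loess, where the mean was -0.14.

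SEMA3G, a ligand of vessel endothelium that binds NRP2, fell with P4. The P4 arrays read -1.75, -1.38, -1.18, -0.88 and -1.22, with a mean of -1.28 ± 0.32 (SD, n = 5), 2.43-fold lower, and adjusted p = 1.08e-05. The HIPP arrays read -0.75, -1.10, -0.70, -0.36 and -0.19 and the shCtBP2 arrays -0.18, -0.55, -0.42, -0.15 and -0.15. All 15 arrays were below 0, and no shCtBP2 array was as low as any P4 array. The means outside P4 were -0.62 ± 0.36 with HIPP and -0.29 ± 0.18 with shCtBP2, neither called. The treated channel was well above background on 2 of 5 P4 arrays, and the call was lost with the methods' t-test (adjusted p = 0.056) and with normexp and loess (-0.25).

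SEMA3B and SEMA3F are secreted ligands studied as candidate tumour suppressors of the short arm of chromosome 3. SEMA3B rose with shCtBP2, where the arrays read 0.27, 0.58, 0.12, 1.13 and 1.03. The HIPP arrays read 0.45, 1.02, 0.90, 0.61 and 0.96, and the P4 arrays -0.027, 0.10, -0.31, 0.15 and 0.021. Every shCtBP2 and HIPP array was above 0, while the P4 arrays fell on both sides. The means were 0.63 ± 0.45 with shCtBP2, 0.79 ± 0.24 with HIPP and -0.014 ± 0.18 with P4 (SD, n = 5), with adjusted p = 0.00868, 0.00031 and 0.949. The shCtBP2 call was narrow, since the mean was 0.50 without replicate 4 and 0.53 without replicate 5, both under the fold required. It was also lost with slide as a fixed block (adjusted p = 0.231), with each treatment fitted alone (0.0539), with the methods' t-test (0.229) and with normexp and loess, where the mean was 0.46. SEMA3E, which binds PLXND1 without a neuropilin, had -0.20 ± 0.29 with shCtBP2, -0.57 ± 0.38 with HIPP and -0.78 ± 0.28 with P4. With HIPP its adjusted p was 0.00399, but with normexp and loess its log2 ratio turned to 0.065. With P4 the adjusted p was 0.000977 and the mean did not reach the 1.8-fold set. Its bright probe, at 82641879, read 0.42 ± 0.33 with HIPP and -0.006 ± 0.77 with P4. The probe at 82638456 read -1.56 ± 0.81 and -1.55 ± 0.65, but its treated channel was well above background on 0 of 5 arrays of either compound, so the decrease has no measured fold. SEMA3F was 0.020 ± 0.23 with shCtBP2, 0.49 ± 0.51 with HIPP and -0.036 ± 0.30 with P4, and its treated channel was well above background on no array, so it has no measured fold.

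**Figure D2:**
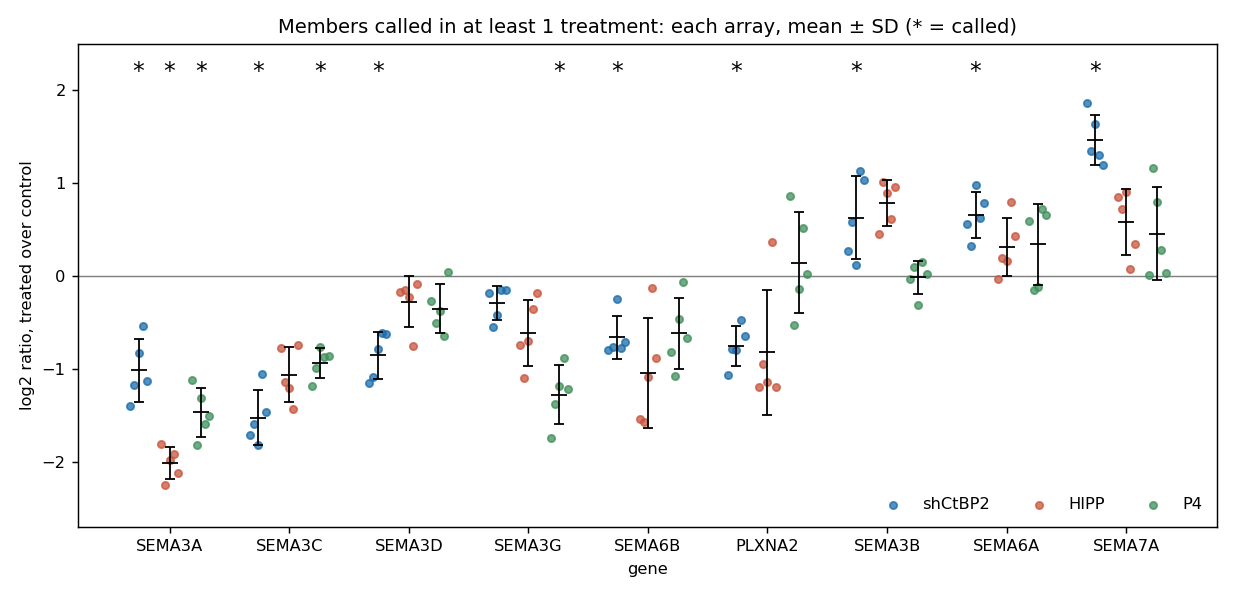
Log2 ratio of treated over control signal on each array for the 9 members called in at least 1 treatment, with the mean as a line and 5 arrays per treatment. Every array of SEMA3A and SEMA3C lay below 0, and the lowest shCtBP2 array of SEMA7A, 1.20, lay just above the highest P4 array, 1.16.

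By the hg17 coordinates of the probes, SEMA3C, SEMA3E, SEMA3A and SEMA3D lay in that order on the long arm of chromosome 7, between 80017063 and 84273645. The stretch held 15 array names, of which 6 had a current symbol. With shCtBP2, 3 of 15 tested were called, SEMA3C, SEMA3A and SEMA3D, all lower. HGF, CACNA2D1 and the other 9 array names that are no member gave no call there. With HIPP, 2 of 13 were called, SEMA3A and a probe without a gene name, both lower. With P4, 3 of 15 were called, SEMA3C, SEMA3A and the transcript THC2344033, all lower. Over all genes, 3.2%, 3.61% and 4.17% were called lower in the 3 treatments. That transcript, at 82637434, lay beside the SEMA3E probe at 82638456 and had -1.10 with P4 (adjusted p = 7.37e-05). SEMA3F, SEMA3B and SEMA3G lay on chromosome 3 from 50197960, 50289027 and 52443182.

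None of the class 4 ligands, which are membrane-bound, was called in any treatment. SEMA4D, the ligand of PLXNB1, had -0.32 ± 0.21 with shCtBP2, -0.88 ± 0.36 with HIPP and -0.43 ± 0.58 with P4. With HIPP its adjusted p was 0.000793, but no treated channel was well above background, so the decrease has no measured fold. On another scale, from signals corrected by normexp and loess and scaled between arrays, its lower bound was 1.08-fold. Under the name C9orf164 the means were -0.51, -0.39 and -0.63 in the order shCtBP2, HIPP and P4, and no treated channel was above background. SEMA4C, a ligand of PLXNB2, had -0.24 ± 0.14 with shCtBP2, 0.096 ± 0.14 with HIPP and -0.009 ± 0.13 with P4. SEMA4A, which acts on T cells, had 0.10 ± 0.18 with shCtBP2, 0.091 ± 0.16 with HIPP and 0.26 ± 0.14 with P4, with adjusted p = 0.0393 for P4 at a 1.2-fold difference.

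SEMA4B had 0.035 ± 0.11 with shCtBP2, -0.14 ± 0.057 with HIPP and 0.039 ± 0.19 with P4, which is close to the control in each treatment. SEMA4F had 0.025 ± 0.26 with shCtBP2, 0.23 ± 0.58 with HIPP and -0.11 ± 0.44 with P4, and SEMA4G 0.031 ± 0.26 with shCtBP2, -0.29 ± 0.27 with HIPP and -0.17 ± 0.26 with P4. Neither passed the adjusted p in a treatment where it was tested. The class 5 ligands carry thrombospondin repeats, and both were dim throughout. SEMA5A had -0.59 ± 0.82 with shCtBP2, -0.25 ± 0.45 with HIPP and 0.051 ± 0.46 with P4, and SEMA5B 0.72 ± 0.71 with shCtBP2, 0.22 ± 0.52 with HIPP and 0.49 ± 0.71 with P4. As no channel was well above background, no fold is given for them.

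Of the 4 transmembrane class 6 ligands, which bind A plexins, SEMA6A rose and SEMA6B fell with shCtBP2 and none was called with a compound. The SEMA6A arrays read 0.56, 0.33, 0.99, 0.63 and 0.79 with shCtBP2, with a mean of 0.66 ± 0.25 (SD, n = 5) and adjusted p = 0.0101. With HIPP they read -0.031, 0.20, 0.16, 0.79 and 0.43, mean 0.31, and with P4 0.59, -0.15, -0.12, 0.72 and 0.66, mean 0.34. All shCtBP2 arrays were above 0, and both compound groups overlapped them. Without replicate 3 the shCtBP2 mean was 0.58, under 1.5-fold, and with slide as a fixed block it was 0.18 (adjusted p = 0.641). The call was also lost with the brightest probe (adjusted p = 0.148), the methods' t-test (0.06) and normexp and loess, where the mean was 0.16 (0.172). The shCtBP2 mean includes a dim probe at 1.10, which was well above background in neither channel of any shCtBP2 array. The other probes read 0.67 and 0.20.

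SEMA6B was below 0 on all 15 arrays. They read -0.80, -0.76, -0.25, -0.77 and -0.71 with shCtBP2, mean -0.66 ± 0.23 (SD, n = 5), -1.54, -1.58, -1.09, -0.13 and -0.89 with HIPP, mean -1.05 ± 0.59, and -0.82, -1.07, -0.46, -0.061 and -0.67 with P4, mean -0.62 ± 0.38. The groups overlapped, and replicate 4 was nearest to 0 in both compound groups. The adjusted p values were 0.0278, 0.000264 and 0.0192, and only the shCtBP2 mean reached the fold of its treatment. That call was lost when replicate 1, 2, 4 or 5 was left out, with the methods' t-test (adjusted p = 0.0607) and with normexp and loess, where the mean was -0.45 (0.0639). SEMA6C had 0.13 ± 0.17 with shCtBP2, 0.48 ± 0.21 with HIPP and 0.062 ± 0.14 with P4, with adjusted p = 0.000592 for HIPP at 1.4-fold, and SEMA6D had -0.003 ± 0.62 with shCtBP2, -0.45 ± 0.50 with HIPP and 0.12 ± 0.40 with P4.

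SEMA7A, the class 7 ligand, is held to the membrane by a lipid anchor and binds PLXNC1 and integrins with a beta 1 chain. It rose with shCtBP2, where the arrays read 1.86, 1.34, 1.64, 1.31 and 1.20. The HIPP arrays read 0.85, 0.73, 0.90, 0.080 and 0.34, and the P4 arrays 0.016, 1.16, 0.80, 0.28 and 0.030. No array was below 0, and every shCtBP2 array lay above every array of the compounds. The means were 1.47 ± 0.27 (SD, n = 5), 0.58 ± 0.36 and 0.46 ± 0.51, with adjusted p = 6.7e-05, 0.0104 and 0.051. The shCtBP2 mean is a 2.77-fold increase, and of the alternatives tried, normexp with loess (0.42) ended the call. SEMA7A was read by a single probe, whose control channel was well above background on 4 of 5 shCtBP2, 5 of 5 HIPP and 3 of 5 P4 arrays. The integrin gene ITGB1, a partner of SEMA7A, had -0.013 ± 0.14 with shCtBP2, 0.10 ± 0.24 with HIPP and -0.056 ± 0.28 with P4. The ITGB1 arrays lay between -0.38 and 0.47, on both sides of 0 in each treatment, and low variability left it untested.

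Among the plexins, PLXNA2 was the only gene called in any treatment. A plexins pair with neuropilins to receive class 3 ligands. The PLXNA2 arrays read -1.07, -0.78, -0.80, -0.47 and -0.64 with shCtBP2, with a mean of -0.75 ± 0.22 (SD, n = 5) and adjusted p = 0.0329. With HIPP they read -1.20, -0.95, -1.14, 0.37 and -1.19, mean -0.82 ± 0.67, and with P4 0.86, -0.52, -0.14, 0.52 and 0.020, mean 0.15 ± 0.55. All shCtBP2 arrays were below 0, replicate 4 of HIPP stood apart above 0, and the P4 arrays lay on both sides. Leaving out any 1 shCtBP2 array ended the call, with adjusted p between 0.06 and 0.112. It was also lost with the brightest probe (adjusted p = 0.11), slide as a fixed block (0.0749) and normexp and loess (0.0832).

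PLXNA1, a partner of NRP1 for SEMA3A, read -0.25, -0.41, -0.49, -0.48 and -0.43 with shCtBP2, -1.12, -0.87, -0.83, -0.15 and -1.004 with HIPP and -0.010, -0.41, -0.55, 0.046 and -0.40 with P4. Of the 15 arrays, 14 were below 0, the exception being replicate 4 of P4, and replicate 4 was also nearest to 0 with HIPP. The means were -0.41 ± 0.095 with shCtBP2, -0.79 ± 0.38 with HIPP and -0.26 ± 0.27 with P4 (SD, n = 5), with adjusted p = 0.0423, 0.000108 and 0.116, and none reached the fold of its treatment. PLXNA3 had -0.078 ± 0.20 with shCtBP2, -0.29 ± 0.42 with HIPP and -0.11 ± 0.26 with P4. PLXNA4 was near background, with -0.11, -0.42 and 0.012 as PLXNA4A and -0.29, 0.17 and 0.19 as PLXNA4B in the order shCtBP2, HIPP and P4. Its signals allow no reading of a change.

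The B plexins receive class 4 ligands. PLXNB1 had 0.14 ± 0.48 with shCtBP2, -0.44 ± 0.38 with HIPP and 0.048 ± 0.34 with P4, with adjusted p = 0.0494 for HIPP. PLXNB2, bright on all arrays, had -0.20 ± 0.084 with shCtBP2, 0.12 ± 0.29 with HIPP and -0.036 ± 0.27 with P4, and PLXNB3 had -0.35 ± 0.64 with shCtBP2, -0.31 ± 0.62 with HIPP and -0.46 ± 0.61 with P4. None of them was called. PLXND1, the receptor of SEMA3E, had -0.20 ± 0.17 with shCtBP2, -0.44 ± 0.37 with HIPP and 0.036 ± 0.19 with P4, with adjusted p = 0.0079 for HIPP. PLXNC1, the receptor of SEMA7A, read -0.87, -0.041, -0.48, -0.082 and 0.53 with shCtBP2, 0.60, 0.88, 0.61, -0.40 and 0.88 with HIPP and -0.29, 0.22, 0.46, -0.48 and -0.33 with P4. Its arrays lay on both sides of 0 in each treatment, with means of -0.19 ± 0.52, 0.51 ± 0.53 and -0.084 ± 0.40. The treated channel of PLXNC1 was well above background on 2 arrays, both with HIPP.

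NRP1, the co-receptor of SEMA3A, was above 0 on all 15 arrays but under the folds required. It read 0.34, 0.42, 0.20, 0.53 and 0.15 with shCtBP2, 0.087, 0.84, 0.46, 0.80 and 0.29 with HIPP and 0.91, 0.31, 0.49, 0.35 and 0.53 with P4, so the groups overlapped. The means were 0.33 ± 0.15 with shCtBP2, 0.50 ± 0.32 with HIPP and 0.52 ± 0.24 with P4 (SD, n = 5), with adjusted p = 0.0809, 0.00279 and 0.00403. These means hide probes that moved apart, as described next, and with the brightest probe alone they were -0.20 with shCtBP2 and -0.76 with HIPP. NRP2, the co-receptor of SEMA3F and SEMA3G, had 0.10 ± 0.13 with shCtBP2, 0.28 ± 0.26 with HIPP and 0.34 ± 0.35 with P4, with adjusted p = 0.046 for P4, where alone it was tested. Neither neuropilin was called in a treatment.

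Of the 33 names, 17 had several probes, and in part these read different stretches of the transcript. Probes of a gene had mean ratios of opposite sign for 7 names with shCtBP2, 10 with HIPP and 10 with P4. They lay more than 1 log2 unit apart for 1, 9 and 3 names, and the median gap was 0.35, 1.14 and 0.58. The median gap was thus widest with HIPP. The NRP1 probe that spans an exon junction at hg17 chr10:33536628-33542356, the one nearest to the 5′ end, read 0.40 ± 0.11 with shCtBP2, 1.79 ± 0.20 with HIPP and 1.13 ± 0.27 with P4. The NRP1 probe nearest to the 3′ end, at chr10:33506942-33507001, read -0.20 ± 0.23, -0.76 ± 0.32 and 0.18 ± 0.19. The 5′ probe was thus 3.46-fold higher and the 3′ probe 1.69-fold lower with HIPP, and both were well above background on all arrays. An intermediate probe at 33509045 read 0.12, 0.43 and 0.46, and a dim probe at 33530025 read 0.98, 0.52 and 0.30.

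With HIPP the NRP2 probe nearest to the 3′ end, at chr2:206487271-206487330, read -1.02 ± 0.93, while those at 206433586 and 206485209 read 0.91 ± 0.21 and 0.72 ± 0.41. The probes at 206485209 and 206487271 were assigned to the same transcript record and read in opposite directions, while that at 206433586 was assigned to another variant. PLXNA2 read -1.72 and 0.073 with HIPP, the lower value at the 3′ side, and SEMA3E -1.56 and 0.42, again lower at the 3′ side. The same side was lower for SEMA4F (-0.64 and 1.10), SEMA3D (-0.85 and 0.51) and PLXNC1 (-0.29 and 1.32). SEMA4C (-0.31 and 0.51) and SEMA3F (-0.074 and 1.06) were lower at the 5′ side. Of these, the SEMA3F probes and the 5′ probes of SEMA3D and PLXNC1 were dim, and the 3′ probe of SEMA3E was not well above background in any HIPP channel. The PLXNA4A probes, near background, spanned -1.79 and 0.95. SEMA3A kept 1 direction, with -2.40 at its 3′ probe (chr7:83232840-83232899) and -1.62 at its 5′ probe (chr7:83235208-83235267).

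With P4 the lowest and highest probe means were -1.55 and -0.006 for SEMA3E, -0.75 and 0.54 for SEMA4F and -1.16 and 1.15 for PLXNA4A, the 3 names with gaps over 1. Probes of opposite sign but closer were those of SEMA4C (-0.47 and 0.45), SEMA6A (-0.13 and 0.74), PLXNC1 (-0.48 and 0.31), NRP2 (-0.16 and 0.58), SEMA3F (-0.32 and 0.25), SEMA3B (-0.16 and 0.14), PLXNA2 (-0.004 and 0.30) and PLXND1 (-0.072 and 0.14). With shCtBP2 the names of opposite sign were NRP1 (-0.20 and 0.98), PLXNA4A (-0.46 and 0.21), SEMA3E (-0.52 and 0.12), PLXNC1 (-0.49 and 0.11), SEMA4F (-0.16 and 0.21), SEMA6D (-0.18 and 0.17) and SEMA3F (-0.062 and 0.10). Of the members called with shCtBP2, none was in that list. The SEMA3B probes there read 0.38 and 0.88, and the SEMA6A probes 0.67, 0.20 and, dim, 1.10.

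For 16 members the probes nearest to the 3′ and the 5′ end could be set side by side. The 3′ probe was lower in 7 members with shCtBP2, 11 with HIPP and 8 with P4, and the median of the 3′ minus the 5′ mean was 0.13, -1.07 and -0.13. The difference exceeded 1 log2 unit in 0, 9 and 3 of the 16 members. Over the 7075 genes with such probes it did so in 3.51%, 25.9% and 9.26%, and the 3′ probe was the lower one in 48.7%, 58.5% and 48.5%. For 8 of the 16 members both probes were well above background on all arrays, and the difference exceeded 1 in 0, 3 and 1 of them. Over the 4102 genes whose probes were both well above background on all arrays, the difference exceeded 1 log2 unit in 0.317% with shCtBP2, 27.4% with HIPP and 6.02% with P4. The 3′ probe was the lower one in 47.6%, 59.8% and 46.8% of these genes. By array, the median difference ran from -0.26 to -0.13 with HIPP, wholly below that of every shCtBP2 array (-0.044 to 0.093) and P4 array (-0.046 to 0.11). The source of this difference was not tested.

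**Figure D3:**
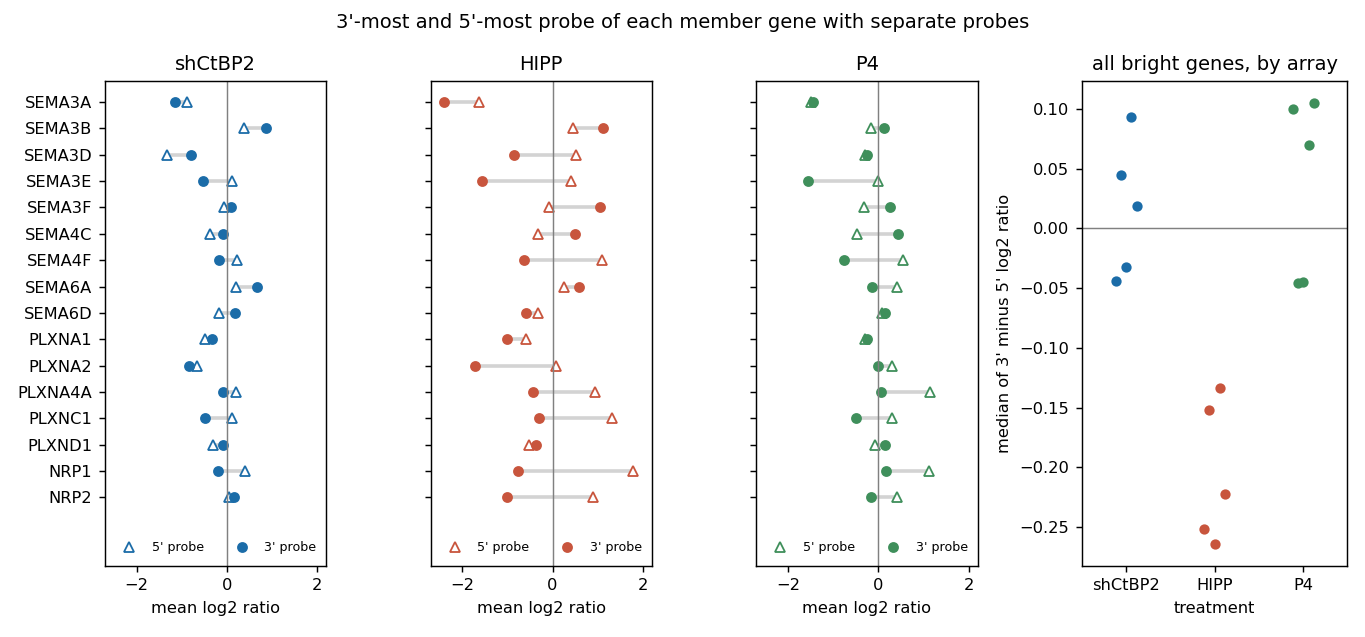
Mean log2 ratio at the 3′-most probe (filled circles) and the 5′-most probe (open triangles) of each of the 16 members with separate probes, by treatment, and at the right the median 3′ minus 5′ difference over 4102 genes for each array. Most pairs are widest apart with HIPP, as for NRP1 (-0.76 and 1.79), but those of PLXND1, SEMA4C, SEMA6A and SEMA6D are not. The 5 HIPP arrays lie below 0 at the right.

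Of 57 other genes of the pathway (GTPases, effectors, co-receptors, other neuropilin ligands and proteases), 2 rose and 2 fell of 51 tested with shCtBP2, against calls for 6.54% of all genes. FES, a tyrosine kinase that binds PLXNA1, rose by 1.88 ± 0.23 (SD, n = 5) with adjusted p = 5.97e-05, and was also called with P4 at 0.97 ± 0.71 (adjusted p = 0.0034). With HIPP it was 1.05 ± 0.46, higher on 5 of 5 arrays (adjusted p = 0.000884), which is under the 2.5-fold set there. RND3 and RHOD fell, with -0.75 ± 0.14 (adjusted p = 0.00112) and -0.67 ± 0.21 (adjusted p = 0.00853). KDR, a receptor of vascular endothelial growth factor that NRP1 joins, was called higher at 0.66 ± 0.49 (adjusted p = 0.0283), but its control channel was well above background on 1 of 5 arrays and normexp with loess gave -0.031. With HIPP, 1 of 49 was called, against 7.04% of all genes. It was VEGF, the array name of VEGFA, a neuropilin ligand, at 2.07 ± 0.23 (adjusted p = 3.61e-09). With P4, 2 of 49 were called, against 8.47% of all genes. They were FES and VEGF, the latter at 1.64 ± 0.19 (adjusted p = 1.09e-07). MICALCL, an array name now assigned to the effector gene MICAL2 and outside the 57 names counted, was also called with P4, at 1.66 ± 0.98 (adjusted p = 0.000691), whereas the MICAL2 name had -0.036 ± 0.31 and was not. With shCtBP2 VEGF was 0.39 ± 0.16 and not called. At any fold, 13, 21 and 16 of these genes had an adjusted p under 0.05, against 13.4%, 48.7% and 31.8% of all genes, and their median log2 ratios were 0.038, 0.05 and 0.17.

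Whether members responded differently to the hairpin than to a compound was tested in the same fit, as the difference of the group means. The comparisons share the shCtBP2 arrays and, by the labels, the control line. Between shCtBP2 and HIPP, 4 of 27 members tested passed an adjusted p of 0.05, against 26.3% of all genes. SEMA3A was less reduced with shCtBP2, by 0.998 (95% interval 0.62 to 1.37, adjusted p = 0.000622), and SEMA7A was higher, by 0.89 (95% interval 0.38 to 1.40, adjusted p = 0.0122). SEMA3D was lower with shCtBP2, at a difference of -0.58 (95% interval -0.95 to -0.21, adjusted p = 0.0227), as was SEMA4C, at -0.33 (95% interval -0.58 to -0.083, adjusted p = 0.0484). The SEMA3D difference was 0.043 (adjusted p = 0.893) with the brightest probe, which read -0.80 with shCtBP2 and -0.85 with HIPP, and -0.035 (0.699) with normexp and loess. SEMA4C was called in neither treatment. Its probe at 96947397 read -0.096 with shCtBP2 and 0.51 with HIPP, while that at 96948504 read -0.38 and -0.31, and with the replicate number as a block the difference no longer passed (adjusted p = 0.0573). When each of the 15 arrays was left out in turn, SEMA4C passed only without HIPP replicate 1, with adjusted p up to 0.12. SEMA3D no longer passed without shCtBP2 replicate 1 or 2 or HIPP replicate 5, with adjusted p up to 0.0633, and was not tested without HIPP replicate 2. SEMA3A and SEMA7A passed in every such fit. On the slide that held shCtBP2 replicates 1 and 2 and HIPP replicates 4 and 5, the differences were 0.73 for SEMA3A, 1.39 for SEMA7A, -0.70 for SEMA3D and -0.30 for SEMA4C. With slide as a fixed block the adjusted p was 0.0727 for SEMA3A and 0.247 for SEMA4C. With normexp and loess that of SEMA3A was 0.0952, at a difference of 0.52. SEMA3C, at -0.47 (0.0331), and SEMA6C, at -0.35 (0.0339), also passed among genes above background, and both did with slide as a random block and with the series matrix values. With the brightest probe NRP2, at -0.85 (0.00031), SEMA4F, at -0.89 (0.0306), and NRP1, at 0.56 (0.0217), passed. So did PLXNA4A, on a probe whose treated channel was well above background on 0 of 5 HIPP arrays, so that its difference was not measured.

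Between shCtBP2 and P4, 4 of 29 members passed, against 11.9% of all genes. SEMA3G was higher with shCtBP2 than with P4, by 0.99 (95% interval 0.59 to 1.39, adjusted p = 0.00336), and SEMA7A by 1.01 (95% interval 0.50 to 1.52, adjusted p = 0.0129). SEMA3B was higher by 0.64 (95% interval 0.22 to 1.07, adjusted p = 0.0485), and SEMA3C was lower with shCtBP2, at a difference of -0.59 (95% interval -0.96 to -0.22, adjusted p = 0.0369). For SEMA3A the difference was 0.45 (95% interval 0.079 to 0.83, adjusted p = 0.112), and for PLXNA2 -0.90 (95% interval -1.55 to -0.24, adjusted p = 0.0719). Neither passed. When each of the 15 arrays was left out in turn, SEMA3G and SEMA7A passed in every fit. SEMA3B no longer passed in 11 of these fits (without any 1 P4 array, shCtBP2 replicate 2, 4 or 5, or HIPP replicate 2, 3 or 5), with adjusted p up to 0.123. SEMA3C no longer passed in 8 (without shCtBP2 replicate 1, 2, 3 or 5 or P4 replicate 2, 3, 4 or 5), with adjusted p up to 0.0907. With the replicate number as a block SEMA3C no longer passed (adjusted p = 0.0511), and PLXNA2 (0.0426) and SEMA3E (0.0445) did. The bright SEMA3E probe read 0.12 with shCtBP2 and -0.006 with P4, and the other probe has no measured fold with P4. Among genes above background PLXNA2 (0.0415), SEMA3E (0.0442) and SEMA3D, at -0.50 (0.0409), passed too, and SEMA3D did so from background-subtracted signals, at -0.92 (0.0144). With slide as a fixed block, where these groups meet only through HIPP arrays, none of the 4 passed. The differences were then 2.19 for SEMA7A (adjusted p = 0.0528), 0.28 for SEMA3G (0.684), 0.41 for SEMA3B (0.617) and -0.74 for SEMA3C (0.292). With normexp and loess SEMA3C, at -0.38 (adjusted p = 0.245), and SEMA3G, at 0.19 (0.0736), no longer passed, SEMA3B was not among the genes tested, and NRP1, at -0.33 (0.0158), and SEMA4C, at -0.25 (0.039), passed.

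**Figure D4:**
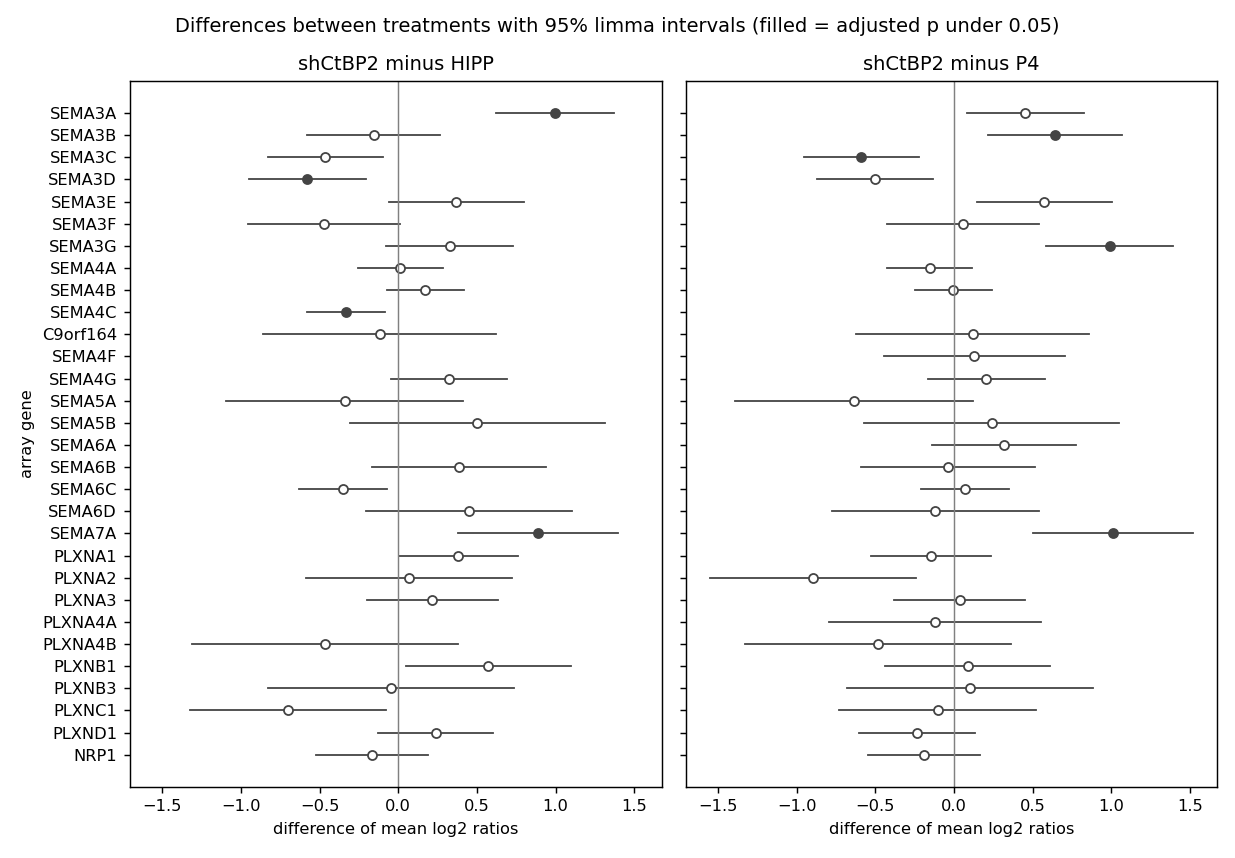
Difference of the mean log2 ratio, shCtBP2 minus HIPP and shCtBP2 minus P4, for each member tested in both treatments, with 95% intervals from the limma fit. Filled points pass an adjusted p of 0.05, and SEMA7A is the member that does so on the same side in both panels, at 0.89 and 1.01.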

How the data were processed

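RNA of MDA-MB231 cells was hybridised by the authors to Agilent whole human genome arrays and read with Feature Extraction 9.5.3.1, which subtracted background and normalized the dyes. The deposited scanner files hold these processed signal intensities of both channels, with hg17 probe positions, and the deposited series table holds log10 ratios of Cy5 over Cy3, within 0.005 of the scanner files and with a median of 0 per array. Here log2 ratios were computed from the processed signals without outlier or non-uniform spots, and spots and then probes were averaged per array gene name. Genes needed 3 of 5 arrays, and the 11% with the lowest interquartile range over the 10 channel signals of a treatment were removed, which left 27574 for each treatment. All 15 arrays were fitted together by limma 3.58.1 in R 4.3.3, with p-values adjusted by Benjamini-Hochberg within each comparison. These p-values measure the spread between replicates, which the labels call biological. The number of arrays limits the precision. Tables were made with Python 3.11.15 and pandas 2.3.3, and the fit was tested on simulated data with 200 changed genes.

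The members, the 57 other pathway genes and the tests were chosen with earlier results of these data known. Named are all members, with every array for those called and for NRP1, PLXNA1 and PLXNC1. ITGB1 is named with the range of its arrays, as are pathway genes called at least once with their means. The methods' t-test gave 1830, 1889 and 1970 genes at the study's folds and an unadjusted p under 0.05 for shCtBP2, HIPP and P4, and 966, 1618 and 895 after Benjamini-Hochberg. Of the members it gave 8, 1 and 3, and then 4, 1 and 2. Replicates of the same number deviated together between shCtBP2 and P4, with correlations of 0.138 to 0.344, so a fit with replicate blocks is given beside that contrast. The pairing comes from the data, as the labels give only numbers. Alternatives changed the filters, probe choice, background correction, slide and replicate blocks, fold and left out each array. Columns of the authors' own comparisons were not used, and no hg17 annotation was used, so exons are not given.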

Additional observations from a re-analysis of the deposited data

Results flagged for a closer look

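Among 102 sets of 5 arrays, for the 33 member names and ITGB1 in 3 treatments, 5 had 1 array far from the other 4 by Dixon's ratio, with a critical value of 0.71. Chance flags about 1 in 20 such sets. In 3 of them the array was HIPP replicate 4. There PLXNA2 read 0.37, with the others between -1.20 and -0.95. PLXNC1 read -0.40, with the others between 0.60 and 0.88, and SEMA3D read -0.76, with the others between -0.22 and -0.082. SEMA4C read -0.15 on HIPP replicate 1, with the others between 0.12 and 0.20. SEMA6B read -0.25 on shCtBP2 replicate 3, with the others between -0.80 and -0.71. Only the last of these sets belongs to a member called in that treatment, and without shCtBP2 replicate 3 SEMA6B kept its call. The SEMA3D and SEMA4C sets entered differences between shCtBP2 and HIPP that passed. When arrays were left out in turn, that of SEMA4C passed only without its flagged array, HIPP replicate 1.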

How the results depend on the processing

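The decreases of SEMA3A with shCtBP2 and P4 and of SEMA3C with shCtBP2 kept direction and call under all 28 alternatives. Not all of these could end a call. The changes of fold kept or lowered the fold required, and leaving out an array of another treatment left the group mean as it was. The 8 members called with shCtBP2 became 5 with slide as a fixed block, 4 with the methods' t-test and 2 with normexp and loess, and 5 to 8 when 1 array was left out, with 5 without shCtBP2 replicate 4 or 5. The 1 called with HIPP became 2 with the brightest probe of each gene, 8 at 1.5-fold, 15 at any fold and 0 in limma with normexp and loess, where 11 members had an unadjusted p under 0.05. Leaving out an array gave 1 each time. The 3 called with P4 became 5 at 1.5-fold, 9 at any fold, 2 with slide as a fixed block, the methods' t-test or normexp and loess, and 3 to 4 without an array. The 4 members that differed between shCtBP2 and HIPP became 2 with slide as a fixed block, 2 with normexp and loess, and 6 with the filter on background, the brightest probe, slide as a random block or the series matrix values. Without an array they were 2 to 7, with 2 without shCtBP2 replicate 1 or HIPP replicate 2 and 7 without HIPP replicate 4. The 4 between shCtBP2 and P4 became 7 among genes above background and 0 with slide as a fixed block, where 5 had an unadjusted p under 0.05. Without an array they were 2 to 6, with 2 without shCtBP2 replicate 2 or 5 or P4 replicate 3, 4 or 5, and 6 without HIPP replicate 4. With the replicate block the counts of members were 8, 1 and 3 for the treatments, 5 for shCtBP2 against HIPP and 5 for shCtBP2 against P4. Same-numbered replicates of shCtBP2 and HIPP correlated at 0.071 to 0.299 and those of HIPP and P4 at -0.01 to 0.464. In each, 4 of 5 pairs were over 0.1 where pairing asked for all, so these numbers were not taken to pair arrays. Against HIPP the block lost SEMA4C (adjusted p = 0.0573) and gained SEMA4G (0.0496) and SEMA6C (0.0248). Direction turned for NRP1 with the brightest probe (-0.20 with shCtBP2, -0.76 with HIPP), for PLXNC1 with the brightest probe in HIPP (-0.29) and in P4 with normexp and loess (0.041) or without P4 replicate 4 (0.015, in a range of -0.22 to 0.015 over arrays left out), and for PLXNA2 in P4 without P4 replicate 1 (-0.033, in a range of -0.033 to 0.31). It turned for SEMA3B in P4 with the brightest probe (0.14), slide as a fixed block (0.091) or without P4 replicate 3 (0.062, in a range of -0.055 to 0.062), for SEMA6A in P4 with the brightest probe (-0.13), and for SEMA7A in P4 with slide as a fixed block (-0.20). The cause was not tested. Among members never called, the signs of SEMA3E, SEMA3F, SEMA4A, SEMA5A, SEMA6D, PLXNA4A, PLXNA4B, PLXNB1, PLXNB2 and PLXNB3 turned in at least 1 treatment with another scaling. Over all genes, calls fell from 1802, 1940 and 2335 to 268, 282 and 584 with normexp and loess. They fell to 966 with shCtBP2 and 895 with P4 under the methods' t-test, and from 2981 to 519 between shCtBP2 and P4 with slide as a fixed block and to 1971 without P4 replicate 5. At 1.5-fold they rose to 8975 with HIPP and 4830 with P4, and at any fold to 3685, 13423 and 8764. The P4 calls were 1186 higher and 1149 lower, and 842 and 1301 from background-subtracted signals centred on the median. The median of all genes, 0.11 with P4, was 0.0044 with normexp and loess and -0.045 from those signals, and with HIPP it moved from 0.082 to -0.068. Of 965 values of named results under alternatives, 903 kept direction and call, 32 lost the call, 19 gained one and 11 turned direction. These values include the alternatives named above that could not end a call.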
